A study of Mus musculus with 4 samples.

Results

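Adcy7 is one of 9 genes for membrane adenylyl cyclases, Adcy1 to Adcy9, which were taken by symbol from a table of 55401 mouse genes. All 9 had a row, 8 had at least 1 count in some library, and 6 passed the filter on low counts and were tested. The libraries were made from bone marrow-derived macrophages, cells grown in culture from the marrow of C57BL/6J mice. For every library, marrow cells were exposed to lentivirus carrying CRISPR-Cas9 (multiplicity of infection 30) at day 1, and differentiation took 5 days. For 2 libraries the virus was directed at Adcy7 (Adcy7 knockout) and in the other 2 at Rosa (Rosa control), a locus commonly used as a neutral target. The labels describe treated cultures, not a clone or a mouse line, and give neither the guide, nor the share of cells edited, nor the number of mice or cultures behind the replicates. The p-values therefore measure only the spread between these libraries, which may be technical.

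Membrane adenylyl cyclases turn ATP into the second messenger cyclic AMP when a receptor activates the stimulatory G protein subunit encoded by Gnas. The family differs in what else it responds to. Adcy1, Adcy3 and Adcy8 are the isoforms responsive to calcium and calmodulin, Adcy2, Adcy4 and Adcy7 are enhanced by G protein beta-gamma dimers, Adcy5 and Adcy6 are inhibited by calcium and by inhibitory G proteins, and Adcy9 stands apart through its weak response to forskolin. In macrophages cyclic AMP is known to restrain the release of inflammatory cytokines.

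Because the members are relatives, it matters whether their reads can be told apart. The coding stretch around the longest run that Adcy7 shares with a relative is shown for the 4 members with the most counts. Sequences are from GENCODE M21 transcripts (build GRCm38), coding strand, 60 bases each, and capitals mark bases that differ from Adcy7.
Adcy7: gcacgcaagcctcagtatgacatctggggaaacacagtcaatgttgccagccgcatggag
Adcy9: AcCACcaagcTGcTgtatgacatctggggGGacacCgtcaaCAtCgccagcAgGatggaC
Adcy6: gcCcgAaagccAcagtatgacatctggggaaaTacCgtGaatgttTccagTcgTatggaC
Adcy2: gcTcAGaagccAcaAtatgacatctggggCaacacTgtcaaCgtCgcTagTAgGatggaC
In this stretch Adcy6 was identical to Adcy7 at 50 of 60 bases (83.3%), Adcy2 at 46 (76.7%) and Adcy9 at 44 (73.3%). Over the whole coding sequence the longest run without a mismatch was 23 bases between Adcy7 and Adcy6, and 26 bases between Adcy7 and either Adcy1 or Adcy5. No word of 50 bases was shared between any of the 9 cyclase genes, and none of the 6816 such words of Adcy7 occurred in a transcript of another gene on either strand. Words shared with genes outside the family were most frequent for Adcy3. Its exons overlap those of Cenpo, a kinetochore gene on the opposite strand, over 1380 bases, and 18.6% of its words lie in Cenpo transcripts. Adcy6 and Adcy2 share 7.42% and 3.39% of their words with the antisense genes Gm29331 and Gm35161, which had no count in any library. Adcy8 shares 23 of its 8150 words with several other genes.

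Library totals ran from 61782358 to 71914179 counts. Of low counts (1 to 40), 30.5% to 32.2% were multiples of 4 and most were not. Taking 1 sequenced fragment as 4 counts, as is done here, is therefore an assumption. Levels are given as CPM, the counts of a gene scaled to the library total. The 10 macrophage markers summed to 57825 to 59808 CPM in the control libraries and to 23439 to 23720 CPM in the knockout libraries, with 2 higher, 7 lower and 1 that did not pass. Most of these sums, and of their fall, was Lyz2. It was at 50358 and 52209 CPM in the control libraries and at 16468 and 16440 CPM in the knockout libraries. The identity genes Csf1r and Adgre1 stayed above 860 CPM in every library, while Mertk, a receptor for dead cells, was at 0.28 and 0.36 CPM in the knockout libraries. Markers of several other cells were higher in the knockout libraries. The sums were 30.8 to 33.8 CPM in the control and 221 to 280.0 CPM in the knockout for eosinophils (5 of 7 higher), 6.18 to 7.72 and 82.5 to 89.8 CPM for mast cells and basophils (7 of 10 higher, Cma1 and Mcpt4 without a count), 193 to 208 and 361 to 407 CPM for megakaryocytes and platelets (9 of 9 higher), and 27.1 to 28.0 and 38.2 to 40.8 CPM for B cells (5 of 6 higher). Most of the eosinophil sum was Prg2, at 27.1 and 25.7 CPM in the control and 249 and 190 CPM in the knockout libraries. The eosinophil marker Siglecf was at 3.56 and 3.68 against 3.66 and 4.11 CPM and did not pass. Pf4 was most of the megakaryocyte and platelet sum, at 170 and 153 against 207 and 189 CPM. The B cell marker called lower, Cd79b, was the most abundant of its list in every library. Cd79b went from 25.2 and 25.8 CPM in the control libraries to 15.7 and 17.3 CPM in the knockout libraries. Dendritic cell markers summed to 3.92 to 4.03 and 43.9 to 44.0 CPM (3 of 7 higher, mostly through Ccr7, without which the sums were 1.25 to 1.86 and 2.86 CPM, with Cd209a and Siglech without a count in the knockout), erythroid markers to 2.35 to 2.49 and 17.4 to 22.7 CPM (3 of 6 higher, Alas2 without a count in the knockout) and T and NK cell markers to 1.40 to 1.46 and 8.09 to 9.09 CPM (1 of 7 higher). Neutrophil markers summed to 5713 to 6986 and 5168 to 6619 CPM, with 3 of 8 lower, and stromal markers to 0.0572 to 1.64 and 1.04 to 1.82 CPM, with none of the 3 tested passing. Some markers called higher had few or no counts in the control and entered the test only through the knockout libraries. Among them were Ear1 and Ear6 of the eosinophil list and Pax5 and Ebf1 of the B cell list. Across all tested genes 25.0% were higher and 24.6% lower, and nothing is read from these counts of markers called. In bulk RNA, fewer cells of a type and less RNA per cell cannot be told apart, and the part these cells play in the cyclase values was not tested.

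Adcy7 was by far the most abundant cyclase mRNA in both groups, and its level in the knockout libraries was 48.4% of that in the control. The targeted gene (ENSMUSG00000031659, protein-coding, chromosome 8) stood at 122 and 125 CPM in control replicates 1 and 2 and at 59.4 and 58.8 CPM in knockout replicates 1 and 2. Both knockout libraries lay below both control libraries, and the replicates of a group differed far less than the groups. The log2 fold change was -1.05 with a standard error (SE) of 0.09 and an adjusted p of 4.6e-06 (edgeR quasi-likelihood, Benjamini-Hochberg over all 15832 tested genes). Of all tested genes 49.6% passed the threshold of 0.05, 25.0% being higher and 24.6% lower in the knockout, and the libraries of the groups did not overlap for 75.2%. The fall of Adcy7 was thus not among the extremes: of 3896 genes that fell, 1549 (39.8%) fell further. The mRNA level is not a count of edited gene copies.

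The other isoforms enhanced by G protein beta-gamma were scarce. Adcy2 was at 1.40 and 1.99 CPM in the control libraries and at 1.93 and 1.47 CPM in the knockout libraries. The groups overlapped completely, with a log2 fold change of 0.03 (SE 0.33) and an adjusted p of 0.95 in edgeR's test. Adcy4 had 0 and 10 counts in the control libraries and 6 and 4 in the knockout libraries, too few for the test. At 4 counts per fragment this is about 5 fragments in all, and no change of Adcy4 could be detected.

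Adcy6 rose, from a low level in the control. This calcium-inhibited isoform went from 0.411 and 0.444 CPM in the control libraries to 3.21 and 3.38 CPM in the knockout libraries. The knockout libraries lay far above the control libraries, and the replicates were close. The log2 fold change was 2.96 (SE 0.35), or 7.75-fold, with an adjusted p of 3.99e-05 (edgeR). The control level rests on 58 counts over both libraries against 440 in the knockout, and the ratio of pooled counts was 7.7 with a 95% exact counting interval of 4.55 to 15.1 on fragments. Such intervals cover counting error only. Markers of mast cells and basophils, eosinophils and platelets, whose sums are given above, were higher in the same 2 libraries, and their part in the rise of Adcy6 was not tested. Adcy5, its closest relative by regulation, had 4 and 12 counts in the control libraries and 8 and 4 in the knockout libraries and was not tested.

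Among the calcium and calmodulin group, the low counts set the limit. Adcy1 had no count in any library, which allows up to 0.0885 CPM for the control group and up to 0.0898 CPM for the knockout group (3 fragments over the 2 libraries). Adcy8 had no count in the control libraries and 12 and 16 counts, or 0.167 and 0.259 CPM, in the knockout libraries. It entered the test only through the knockout libraries. Its pooled knockout level was 2.37-fold the upper limit of 0.0885 CPM that an absence of counts allows the control group. That ratio leaves out the counting error of the few knockout counts and is not a lower bound on the change. By edgeR, Adcy8 was called higher (adjusted p = 0.0208). That call ended without the filter on low counts (adjusted p = 0.0763), without Rosa control replicate 1 (0.142) and without Rosa control replicate 2 (0.139), and Adcy8 was not tested with counts divided by 4 or without Adcy7 knockout replicate 2. Adcy3 was at 0.882 and 0.558 CPM in the control libraries and at 0.375 and 0.324 CPM in the knockout libraries. Its groups did not overlap, but the log2 fold change of -1.01 (SE 0.52) did not pass in edgeR's test (adjusted p = 0.133). The gene that overlaps it, Cenpo, fell from 14.6 and 14.1 CPM to 6.98 and 6.85 CPM, a log2 fold change of -1.04 (SE 0.15). Counts of Adcy3 were 6.04% and 3.95% of those of Cenpo in the control libraries and 5.38% and 4.73% in the knockout libraries, so their ratio overlapped between groups. The labels name no strand-keeping method, and reads from the stretch where the exons overlap cannot be assigned to either gene.

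Adcy9 was the second most abundant member and did not pass. Control libraries stood at 4.33 and 3.74 CPM and knockout libraries at 3.24 and 4.48 CPM. The knockout replicates enclosed the control replicates, with a log2 fold change of -0.06 (SE 0.23) and an adjusted p of 0.857 (edgeR). The pooled ratio was 0.948 with a 95% exact counting interval of 0.744 to 1.22 on fragments. Of the 6 tested members, Adcy6 and Adcy8 were called higher and Adcy7 lower, and 3 did not pass. The call of Adcy8 is the one that was lost or untested under the settings given above, and nothing is read from this count beside the 49.6% of all tested genes that passed.

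**Figure D1:**
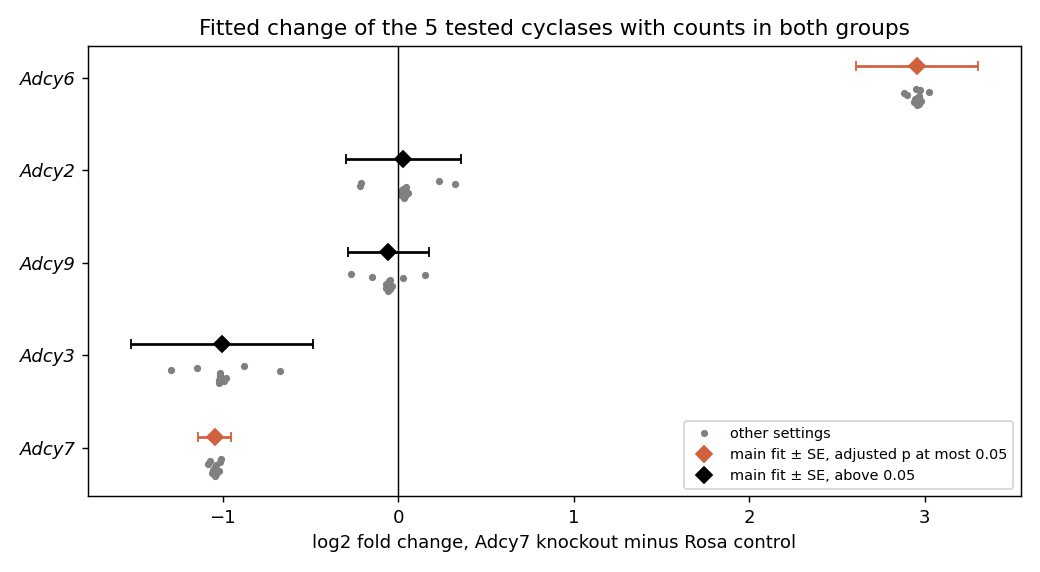
The horizontal axis gives the log2 fold change (Adcy7 knockout minus Rosa control) of the 5 tested cyclases with counts in both groups, with diamonds and bars for the main value ± SE and grey dots for the other settings in which the gene was tested. Adcy6 stays near 2.96 and Adcy7 near -1.05 under every setting shown, while Adcy2 and Adcy9 fall on both sides of 0 and Adcy3 lies below 0 with a wide error.

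To compare members with each other, CPM were divided by the length of the gene's merged exons in kilobases (kb). On this scale Adcy7 was at 18.1 and 18.5 CPM per kb in the control and at 8.82 and 8.74 CPM per kb in the knockout. The order in the control was Adcy7, Adcy9 (0.776 CPM per kb), Adcy2 (0.402), Adcy3 (0.115) and Adcy6 (0.063), each with libraries that did not overlap the next. Below these, Adcy5 and Adcy4, at 0.0162 and 0.0153 CPM per kb, overlapped. In the knockout Adcy6, at 0.486 CPM per kb ± 0.0178 (SD, n = 2), moved above Adcy2, at 0.404 CPM per kb ± 0.0772 (SD, n = 2), behind Adcy7 and Adcy9. Adcy7 exceeded Adcy9 21.7-fold and 25.8-fold in the control libraries and 14.2-fold and 10.1-fold in the knockout libraries. It exceeded Adcy6 299-fold and 283-fold in the control libraries and 18.6-fold and 17.5-fold in the knockout libraries.

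**Figure D2:**
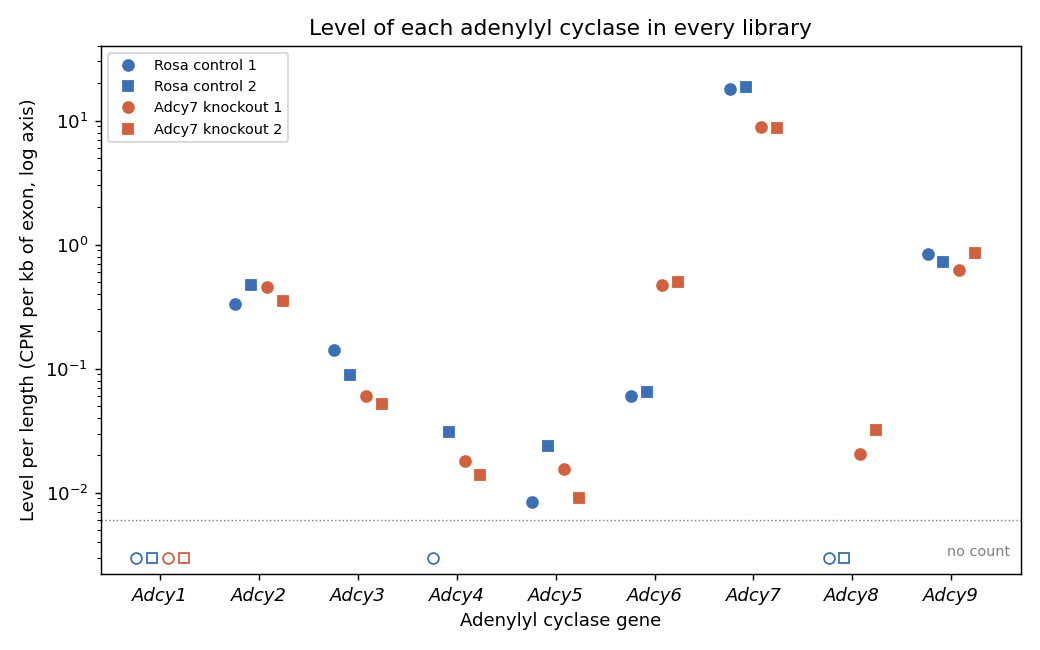
Each point is the level of 1 cyclase gene in 1 library, in CPM per kb of exon on a log axis, with blue for Rosa control and orange for Adcy7 knockout, and open symbols under the dotted line for libraries without a count. Adcy7 lies above all other members in all 4 libraries, Adcy6 is higher in both knockout libraries, and Adcy1 has no count.

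As a share of total cyclase mRNA per kb, Adcy7 made up 92.9% and 93.0% in the control libraries and 84.1% and 82.8% in the knockout libraries. Adcy7 thus stayed the main cyclase transcript in every library. Adcy9 made up 4.27% and 3.60% in the control and 5.94% and 8.17% in the knockout, and Adcy2 1.70% and 2.37% against 4.37% and 3.31%. Both shares were higher in the knockout libraries, as parts of a smaller total, while neither gene's level passed its test. Adcy6 made up 0.31% and 0.328% in the control and 4.51% and 4.73% in the knockout. Shares of Adcy3 were 0.724% and 0.448% in the control and 0.573% and 0.491% in the knockout, which overlap. Adcy8 reached 0.195% and 0.301% in the knockout, Adcy4 and Adcy5 stayed at or below 0.17% in every library, and the absence of counts allows Adcy1 up to 0.0358% in the control and 0.0681% in the knockout. With 2 libraries against 2, an exact two-sided permutation test cannot give a p below 0.333, and the shares are given as values without a test. With coding length in place of exon length, Adcy9 made up 2.53% and 4.63% (means of control and knockout) and Adcy2 1.31% and 2.52%. Adcy6 then made up 4.58% of the knockout total, just below the 4.63% of Adcy9.

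The same shares by regulation put the beta-gamma-enhanced group at 95.1% ± 0.602 (SD, n = 2) of cyclase mRNA in the control and 87.4% ± 1.7 (SD, n = 2) in the knockout. The calcium-inhibited pair, which is almost wholly Adcy6, went from 0.401% ± 0.0666 to 4.74% ± 0.106 (SD, n = 2 each). Members responsive to calcium and calmodulin made up 0.586% ± 0.195 and 0.78% ± 0.0171 (SD, n = 2 each). The order of these groups put Adcy7's group first in all 4 libraries.

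**Figure D3:**
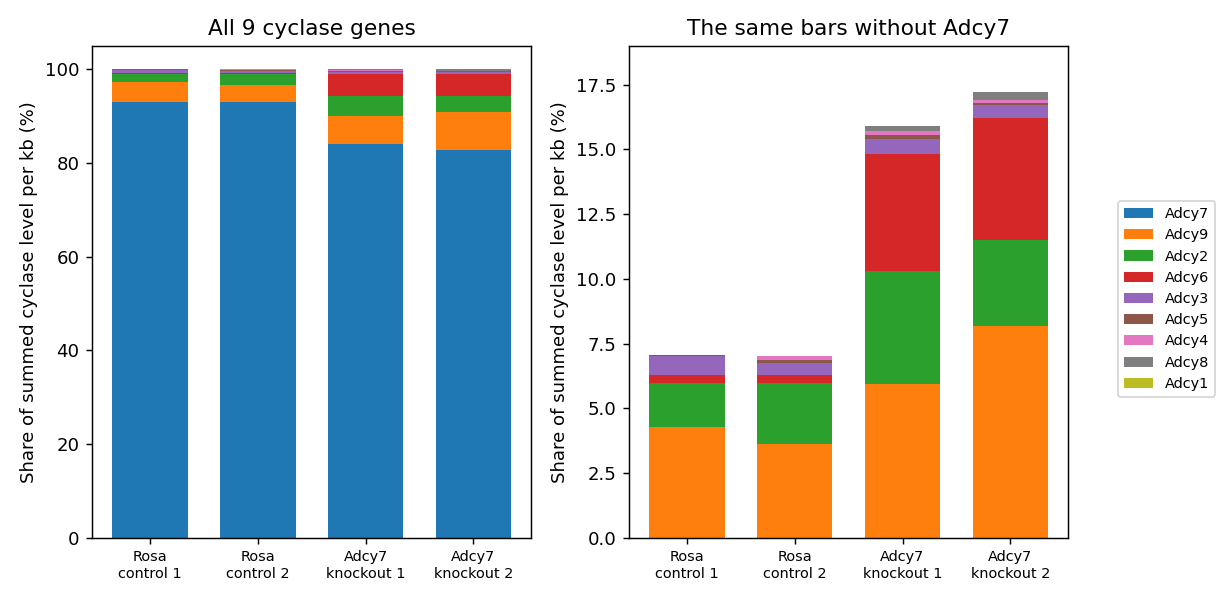
Stacked bars give each member's share (%) of the summed cyclase level per kb in each library, with all 9 genes on the left and the same bars without Adcy7 on a wider scale on the right. Adcy7 fills 92.9% and 93.0% of the control bars and 84.1% and 82.8% of the knockout bars, and the Adcy6 segment (red) is the one that is thin in the control and 4.51% and 4.73% in the knockout.

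In sum over the 9 genes, cyclase mRNA was 19.5 and 19.9 CPM per kb in the control libraries and 10.5 and 10.6 CPM per kb in the knockout libraries. The knockout total was 53.4% ± 0.857 (SD carried over from n = 2 each) of the control. Adcy7 lost 9.56 CPM per kb on average and Adcy6 gained 0.423 CPM per kb, which is 4.43% of that loss. Without Adcy7, the other 8 members summed to 1.38 and 1.40 CPM per kb in the control libraries and to 1.67 and 1.82 CPM per kb in the knockout libraries. These did not overlap, and neither did the libraries of the groups for 75.2% of all tested genes. The mean gain of this sum, 0.356 CPM per kb, was smaller than the 0.423 CPM per kb of Adcy6. The members other than Adcy7 and Adcy6 thus did not rise in sum.

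Beside Adcy7 on chromosome 8, Tent4b and Nod2 were higher in the knockout. Of the 5 nearest protein-coding genes on each side, 7 were tested, 2 were higher, none was lower and 5 did not pass, beside 49.6% of all tested genes that passed in either direction. Tent4b, the nearest gene on one side and a poly(A)-adding enzyme, was at 25.6 and 28.2 CPM in the control and at 51.3 and 48.8 CPM in the knockout libraries. Brd7, a bromodomain protein gene and the nearest on the other side, was at 55.0 and 54.9 CPM against 48.4 and 50.4 CPM and did not pass (log2 fold change -0.14, SE 0.10). Nod2, a sensor of bacterial cell wall, was at 8.68 and 8.83 CPM against 15.8 and 15.3 CPM and was higher by 0.85 on the log2 scale (SE 0.14). Cnep1r1, Heatr3, Snx20 and Cyld had log2 fold changes of 0.14, 0.12, 0.16 and -0.14 and did not pass. Without Adcy7 knockout replicate 2, Snx20 (higher) and Cyld (lower) passed as well, at adjusted p of 0.00885 and 0.0307 in edgeR's test. Nkd1, with 23 counts in Adcy7 knockout replicate 1 and none in the other 3 libraries, was then tested and also called higher (adjusted p = 0.0294, edgeR). The transcript of the control target, Gt(ROSA)26Sor, was at 4.32 and 3.52 CPM in the control libraries and at 3.11 and 4.14 CPM in the knockout libraries, which overlap.

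The genes whose pattern over the 4 libraries lay closest to Adcy7, among 2833 genes of like abundance, were Dgkd, Bcat2, 2610507B11Rik, Csrp1 and Nelfe. Their centred log2 CPM differed from those of Adcy7 by a root mean square of 0.016 to 0.025, and all 5 fell to between 48.1% and 49.0% of control. For Adcy6, among 1963 genes, the closest were Tnfrsf13c, Col23a1, Egfr, Myo6 and Rtn4r, at a root mean square of 0.046 to 0.11. With 4 libraries in 2 groups, such likeness mostly restates the size of the group difference.

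The genes that act on cyclases, here in lists by role, moved in both directions. So did all tested genes, of which 25.0% were higher and 24.6% lower, and nothing is read from the counts of calls per list. Among G protein alpha subunits, 2 of 10 tested rose and 4 fell, with a median log2 fold change of -0.08 beside 0.01 over all tested genes. Gnas, the stimulatory subunit that drives every membrane cyclase (named outside the rule, after its values were seen), was at 812 and 760 CPM in the control and at 604 and 598 CPM in the knockout. It fell by 0.37 on the log2 scale (SE 0.09). Gnai2, an inhibitory subunit and the most abundant of the list, fell from 1307 and 1187 CPM to 741 and 747 CPM. Gna12 fell by 1.12 (SE 0.10) while Gna13, of the same class, rose from 99.6 and 103 CPM to 170 and 186 CPM. Gna15, a subunit that couples to phospholipase C, fell by 1.62 (SE 0.13). Of 13 beta and gamma subunits 3 rose (1 with counts divided by 4) and 6 fell, with a median of -0.18. Gng2 and Gng7 fell by 1.13 (SE 0.10) and 2.08 (SE 0.28), Gngt2 fell by 0.87 (SE 0.11), and Gnb2, the most abundant by its mean over the libraries, fell by 0.46 (SE 0.10).

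Direct regulators and scaffolds had 6 of 17 higher, 6 lower and a median of -0.08, beside 25.0% higher and 24.6% lower of all tested genes. Without Rosa control replicate 2, 3 were lower. Rgs2, which can inhibit adenylyl cyclases and G proteins, fell from 64.9 and 61.2 CPM to 12.5 and 15.9 CPM. Cap1, a cyclase-associated actin regulator and the most abundant of the list, fell by 0.67 (SE 0.09), and Ppp3ca, a catalytic subunit of calcineurin, fell by 0.75 (SE 0.10). The other relatives of the cyclase fold are the guanylyl cyclases, which make cyclic GMP, and the soluble cyclase Adcy10, which had no count. Of 4 tested, 3 rose and none fell, with a median of 2.59 at very low levels. Gucy1a1 had 0 and 12 counts in the control libraries and Gucy2g had 0 and 4. Neither would have been tested without its counts in the knockout libraries, so nothing is read from this count or median. Gucy1b1, a subunit of the nitric oxide-sensitive guanylyl cyclase, went from 0.395 and 0.615 CPM to 3.02 and 3.61 CPM, and its partner Gucy1a1 from 0 and 0.172 CPM to 0.306 and 0.712 CPM. Gucy1a1 lost its call under 6 other settings, with adjusted p of 0.0549 to 0.267. Gucy2g was at 0 and 0.0572 CPM in the control and at 1.07 and 0.987 CPM in the knockout.

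Receptors that feed the cyclases were called in both directions, as were all tested genes (25.0% higher and 24.6% lower). Of 12 tested Gs-coupled receptors 4 rose and 4 fell, with a median of 0.57. Among those that fell, Ptger4, Gpr65 and Hrh2 went to 25.9%, 40.6% and 50.2% of control. These 3 are named outside the rule, after their values were seen. The adenosine receptor Adora2a rose from 10.8 and 9.82 CPM to 73.5 and 67.1 CPM, Adora2b rose from 8.04 and 6.97 CPM to 25.6 and 26.6 CPM, and the prostacyclin receptor Ptgir, the most abundant by its mean over the libraries, rose by 0.83 on the log2 scale (SE 0.10). Of 14 Gi-coupled receptors, which lower cyclase activity, 5 rose and 7 fell, with a median of 0.01. Hcar2, a receptor for niacin and ketone bodies, rose from 23.2 and 24.0 CPM to 204 and 208 CPM, and Gpr84, a receptor for fatty acids, rose by 1.98 (SE 0.10). The complement receptor C3ar1 fell by 3.04 (SE 0.10), and the formyl peptide receptor Fpr1, the most abundant by its mean over the libraries, rose by 0.55 (SE 0.09).

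Downstream of the cyclases, genes for removal of cyclic AMP were higher in 7 of 14 and lower in 5, with a median of -0.0047. Those lower numbered 3 without Rosa control replicate 2 and without either knockout replicate, and with no filter on low counts 4 were higher and 2 lower. The phosphodiesterases Pde10a, Pde4d and Pde4b rose by 2.73 (SE 0.21), 2.44 (SE 0.23) and 1.17 (SE 0.11) on the log2 scale, and the cyclic AMP exporter gene Abcc4 rose from 30.2 and 31.4 CPM to 55.7 and 50.5 CPM. Of 9 tested receivers of cyclic AMP 6 fell and 1 rose, with a median of -0.53. Prkaca, the main catalytic subunit of protein kinase A, fell from 99.5 and 95.4 CPM to 67.5 and 66.2 CPM. The regulatory subunit Prkar2a fell by 0.75 (SE 0.12) and the kinase inhibitor gene Pkib fell by 1.04 (SE 0.21). Prkar1a, the most abundant, rose by 0.34 (SE 0.09), a call lost without Rosa control replicate 1 (adjusted p = 0.143 in edgeR's test) or without Rosa control replicate 2 (0.0711). Of 16 CREB factors and genes that cyclic AMP classically induces, 7 rose and 3 fell, with a median of 0.15. Nr4a3 rose from 0.167 and 0.229 CPM to 2.73 and 3.27 CPM, while Fos fell from 481 and 402 CPM to 43.1 and 40.7 CPM and Dusp1 fell by 0.66 (SE 0.09). Over the 9 lists 38 of 109 tested genes (34.9%) were higher and 41 (37.6%) lower, beside 25.0% and 24.6% of all tested genes. The lists were chosen with earlier results of these data known. Of the genes called, 6 had no count in 1 group and entered the test only through the other group. Nothing is therefore read from the difference between these shares.

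**Figure D4:**
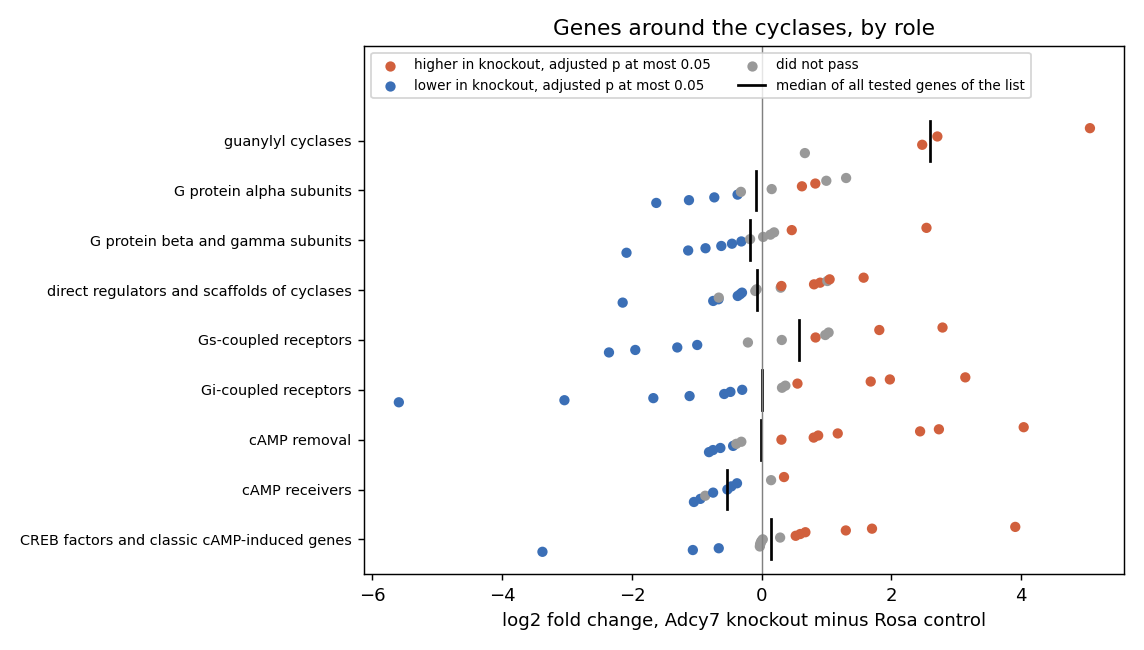
Each point is the log2 fold change (Adcy7 knockout minus Rosa control) of 1 tested gene around the cyclases, sorted by role, with orange for higher, blue for lower and grey for genes that did not pass, and a black bar for the median of the list. The 6 genes without a count in 1 group are not drawn, and the median is 2.59 for the guanylyl cyclases and between -0.53 and 0.57 for the other lists, which all have points on both sides of 0.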

How the data were processed

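For each of 4 libraries the authors deposited expected counts by Ensembl gene, that is estimated counts as whole numbers with no further scaling. The submitters' processing notes name HISAT2, StringTie, fastp and edgeR, and build GRCm39. Their versions, order and settings were not given in the sources used here. Per the labels' protocols, poly(A) RNA with an integrity number above 7.0 gave inserts of about 300 bp. In each library 30.5% to 32.2% of genes with low counts (1 to 40) held a multiple of 4. Floors and counting intervals assume 4 counts per fragment, which these shares do not establish. After filterByExpr and TMM scaling, genes were tested with edgeR 4.0.16 under R 4.3.3 (quasi-likelihood test, adjusted p threshold 0.05). SEs come from the fold change and the F statistic. Exon lengths, names, overlaps and neighbours came from GENCODE M21 on another build (GRCm38), so no coordinates are given. Of 55401 IDs, 55141 had a symbol. Columns were matched to titles by KO or ROSA and number, and what KO3 means is not given. The fit was tested on simulated counts. It recovered 16.3% of 49 genes changed 1.5-fold, 62.5% of 48 changed 2-fold, 100% of 50 changed 4-fold and 97.9% of 48 changed 8-fold. These changed genes were a small part of the 15673 genes tested in the simulation. In the deposited data 49.6% of tested genes passed, which makes the adjusted threshold less strict there. Changes of 2-fold or less often failed to pass in the simulation, but its rates do not carry over to the deposited data. The members and lists were chosen with earlier results of these data known. Named genes are all members, the neighbours of Adcy7, Gt(ROSA)26Sor, the 3 smallest adjusted p and the most abundant gene per list, and the 5 genes most like Adcy7 or Adcy6. One gene that this rule names is not reported here. Alternatives were another scaling, no filter, DESeq2 1.42.0, counts divided by 4, other lengths, a replicate block and leaving out each library.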

Additional observations from a re-analysis of the deposited data

How the results depend on the processing

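Adcy7 (lower) and Adcy6 (higher) kept direction and call under all 12 other fits, with log2 fold changes for Adcy7 of -1.09 to -1.01 without 1 replicate. Without 1 replicate, Adcy6 ranged from 2.88 to 3.03. The count of cyclases higher was 1 in place of 2 with no filter on low counts and with counts divided by 4, and 1 to 2 when a replicate was left out. Values that did not pass changed sign without Rosa control replicate 1 or Adcy7 knockout replicate 1, for Adcy2 (-0.22 and -0.21, range -0.22 to 0.32) and Adcy9 (0.03 and 0.15, range -0.27 to 0.15). Cyld turned to 0.017 without Adcy7 knockout replicate 1 (range -0.31 to 0.017). Neighbours of Adcy7 called higher numbered 2 to 4 and those lower 0 to 1 without 1 replicate. Genes passing in the whole table numbered 6091 to 7554 without 1 replicate. Scaling moved the median of all genes by less than 0.1.

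The share of Adcy7 was 93.0% in the control and 83.4% in the knockout in the main setting. It was 93.5% in the control with longest transcripts, 95.2% and 87.3% with coding length, 94.6% and 86.0% without length scaling, and 93.5% in the control leaving out Adcy3 (chosen after seeing the data). The share of Adcy6 in the knockout was 4.8% without length scaling. The summed level was 22.2 and 11.8 CPM per kb with longest transcripts and 39.3 and 20.5 CPM per kb with coding length, where the knockout was 52.2% of the control. The knockout sum was 10.6 CPM per kb with TMM-scaled sizes and 10.5 CPM per kb leaving out Adcy3.

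Both groups carry replicate numbers 1 and 2. Same-numbered libraries deviated from their group means with a correlation of 0.01 over tested genes. With 2 libraries per group this cannot show whether same-numbered libraries share a mouse or a culture, which the labels do not give. A fit with the replicate block gave 7843 genes passing in place of 7848 and the same cyclase calls. Depth limits Adcy1, Adcy4, Adcy5 and Adcy8, each under 10 fragments in a group at the assumed 4 counts per fragment.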
